A study of Mus musculus with 12 samples.

Results

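The genes described here are 10 core components of the Notch pathway: the receptors *Notch1*, *Notch2* and *Notch3*, the ligands *Dll1*, *Dll3*, *Jag1* and *Jag2*, and the Fringe enzymes *Lfng*, *Mfng* and *Rfng*. They were taken by symbol from the 45563 symbols used, and all 10 were found and passed the filter on low values. The set was selected on the lower *Lfng* values of the stimulated libraries, seen in these same data, so the differences between stimulated and non-stimulated cells are described for these genes without a test. RNA was sequenced from mouse oligodendrocyte precursor cells (OPCs), the proliferating glial cells that give rise to myelinating oligodendrocytes. The cells were isolated from C57BL/6 pups of postnatal days 2 to 5 with beads against PDGFRα and kept for 3 days in a medium with PDGF-AA and FGF2, and pups were either wild type (WT) or lacked TNFR2, a receptor for TNF, in all cells from the germline on (TNFR2-/-). Cells of each genotype were non-stimulated (NS) or stimulated (St) for 3 h with TNF, IFNγ and IL1β at 25 ng/mL each, which gave 4 groups of 3 libraries. Libraries carried the numbers 2, 3 and 4 in WT and 2, 4 and 5 in TNFR2-/- cells, and the NS and the St library that share a number and a genotype are called a culture here.

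Notch signaling passes between touching cells. A Delta-like or Jagged ligand on 1 cell binds a Notch receptor on its neighbor, the receptor is cut by ADAM proteases and by γ-secretase, and its intracellular part joins the DNA-binding protein RBPJ in the nucleus and turns on targets such as the *Hes* and *Hey* repressors and *Nrarp*. Fringe enzymes act in the Golgi, where they extend O-fucose on the extracellular repeats of the receptor with N-acetylglucosamine and so shift its response between Delta-like and Jagged ligands. In the oligodendrocyte lineage the pathway is known for holding OPCs in the precursor state.

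Reads recovered on genes ranged from 26412530 to 29712532 over the 12 libraries. All 10 OPC markers were present, with a summed level of 1829 to 2018 in WT NS, 1789 to 2064 in TNFR2-/- NS, 1420 to 1582 in WT St and 1404 to 1561 in TNFR2-/- St libraries. The markers of highest level in WT NS cells, *Olig1* and *Olig2*, averaged 761 and 361 there and 591 and 154 in WT St cells. With stimulation, 1 of the 10 was higher on average in WT (*Sox10*, 65.8 in NS and 101 in St cells) and 2 in TNFR2-/- cells. Microglia markers were under 1 in all libraries for 9 of 9 genes. The 8 astrocyte markers summed to 280 to 322 in WT NS and 405.5 to 685 in TNFR2-/- NS libraries, and to 266 to 287 in WT St and 402 to 663 in TNFR2-/- St libraries, with the highest sum in culture 5 of both conditions. Markers of mural cells and fibroblasts summed to 79.3 to 747 within and across groups. The highest were *Acta2*, *Tagln* and *Myl9*, at 232, 153 and 79.7 on average in WT NS cells, with *Pdgfrb* and *Rgs5* among those under 1. Of the 8 neuron markers, *Tubb3* was called higher and *Snap25* lower with stimulation in both genotypes. Their sum was 31.1 to 48 in NS and 217 to 275 in St libraries, with *Tubb3* at 25.3 and 211 on average in WT NS and WT St cells. The part of this shift, or of the lower OPC sum, in the differences with stimulation was not tested. Markers of mature oligodendrocytes (27.8 to 83), endothelial cells (2.67 to 7.57) and ependymal cells (3.91 to 10.8) were low. *Tnfrsf1b*, which encodes TNFR2, was read 213 to 346 times in TNFR2-/- NS libraries against 12 to 24 times in WT NS, and 282 to 356 times in TNFR2-/- St against 61 to 145 times in WT St libraries (log2 differences 2.35 ± 0.21 and 1.28 ± 0.21 SE, limma adjusted p = 0.00134 and 0.016). These values go against the label, the tables do not show which exons were read, and every direction between genotypes given here is between libraries labelled TNFR2-/- and libraries labelled WT. The study checked the loss of TNFR2 signaling by AKT phosphorylation, a protein measure not analysed here. It reported a rise after cytokines in WT but not in TNFR2-/- OPCs. Levels below are FPKM rescaled to the annotated exon length of each gene, so that they can be compared between genes, and differences are on the log2(deposited FPKM + 0.5) scale with the standard error of the fit over 12 libraries. In bulk RNA, fewer cells of a type and less RNA per cell cannot be told apart.

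*Lfng* (Lunatic fringe, ENSMUSG00000029570, GRCm38 chromosome 5, 140607320 to 140615545, + strand) was the member with the widest range. Its level was 19.2, 14.1 and 18.8 in the WT NS libraries and 23.4, 20.2 and 33.9 in the TNFR2-/- NS libraries. After 3 h of cytokines it was 1.42, 1.18 and 2.18 in the WT St libraries and 2.07, 1.46 and 0.835 in the TNFR2-/- St libraries. The NS and St libraries did not overlap in either genotype, and the lowest NS library held 949 reads where the highest St library held 164. Culture 5 of the TNFR2-/- cells had both the highest and the lowest value of the 12 libraries. Within cultures, the level in stimulated cells was 2.46% to 11.6% of that in non-stimulated cells, lower in 6 of 6 cultures. The difference on the log2 scale was −3.46 ± 0.33 (SE, n = 3 against 3) in WT and −4.18 ± 0.33 in TNFR2-/- cells, and −3.62 in TNFR2-/- cells without both libraries of culture 5.

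The promoters of *Lfng* and of the Notch target *Hes5* are shown because they hold the core letters bound by RBPJ, and that of *Notch1* as the window of a receptor without them. The windows of *Nrarp*, *Notch2*, *Notch3*, *Jag1*, *Dll1*, *Dll3* and *Rfng*, which like *Lfng* averaged lower in stimulated cells, hold none either. Each is the 250 bases before the start site in RefSeq (GRCm38.p6), written 5′ to 3′ on the gene's strand, with every match to TGGGAA on either strand in capitals (TTCCCA where the match is on the opposite strand). They lie at chr5:140607091-140607340 (+), chr4:154960673-154960922 (+) and chr2:26503823-26504072 (−).
Lfng: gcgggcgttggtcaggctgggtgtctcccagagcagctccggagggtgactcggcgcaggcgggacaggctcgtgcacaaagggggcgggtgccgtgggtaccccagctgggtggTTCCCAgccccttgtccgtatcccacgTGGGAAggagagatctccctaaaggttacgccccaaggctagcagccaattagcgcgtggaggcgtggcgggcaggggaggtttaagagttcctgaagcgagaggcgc
Hes5: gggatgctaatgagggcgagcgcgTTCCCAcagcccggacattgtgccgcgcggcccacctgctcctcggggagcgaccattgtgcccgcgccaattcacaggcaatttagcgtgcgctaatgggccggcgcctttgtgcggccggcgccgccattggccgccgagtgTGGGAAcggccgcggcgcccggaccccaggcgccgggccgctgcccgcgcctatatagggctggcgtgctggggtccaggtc
Notch1: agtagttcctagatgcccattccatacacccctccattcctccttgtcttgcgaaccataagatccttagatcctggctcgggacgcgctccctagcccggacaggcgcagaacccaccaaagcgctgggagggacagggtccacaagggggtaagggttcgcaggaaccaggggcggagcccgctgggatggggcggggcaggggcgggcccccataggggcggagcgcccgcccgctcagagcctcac

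In the *Lfng* window the cores lay 135 to 130 and 108 to 103 bases before the start, on opposite strands. The second of these shared bases with a palindromic CACGTG at 112 to 107, a match to the letters CACGNG that Hes repressors bind. In *Hes5* the cores lay 226 to 221 and 82 to 77 bases before the start. Promoters were given for 9 of the 10 members in 10 windows, and 1 of the 9 (*Lfng*) held TGGGAA, against 21.6% of 32851 promoters of the same length. CACGNG was found in 6 of the 9 (23.5% of promoters), the interferon-γ activated site TTCNNNGAA in 0 (7.02%) and the NF-κB motif in 1, *Notch2* (3.9%), counting both strands. A match describes letters in this window and was not tested for binding.

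The other Fringe enzymes, whose products modify the same sugar, held closer to their non-stimulated level. *Rfng* (Radical fringe) was 17.1, 17.7 and 16.8 in WT NS, 17.9, 19.9 and 19.5 in TNFR2-/- NS, 14.8, 15.1 and 14.4 in WT St and 15.7, 14.5 and 15.5 in TNFR2-/- St libraries. Its St libraries all lay below its NS libraries, at 72.9% to 87.3% within cultures, with log2 differences of −0.22 ± 0.06 in WT and −0.33 ± 0.06 in TNFR2-/- cells, under the fold threshold of 1.5. *Mfng* (Manic fringe) was the lowest of the 10 genes in every group, at 0.187 to 0.538 with 16 to 46 reads per library. Its log2 differences with stimulation were −0.35 ± 0.19 in WT, where groups overlapped, and −0.57 ± 0.19 in TNFR2-/- cells.

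The make-up of the Fringe class differed between conditions. *Lfng* made up 44% to 52.4% of the summed Fringe level in WT NS libraries and 50% to 63.1% in TNFR2-/- NS libraries. In stimulated cells it made up 7.16% to 13% in WT and 5.06% to 11.6% in TNFR2-/- libraries, and *Rfng* made up 85.9% to 93.8%. The Fringe sum itself was 34.9 ± 2.5 (SD, n = 3) in WT NS, 45.4 ± 7.26 in TNFR2-/- NS, 16.6 ± 0.135 in WT St and 16.9 ± 0.913 in TNFR2-/- St libraries. Transcript levels do not give enzyme amounts, which were not measured here.

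**Figure D1:**
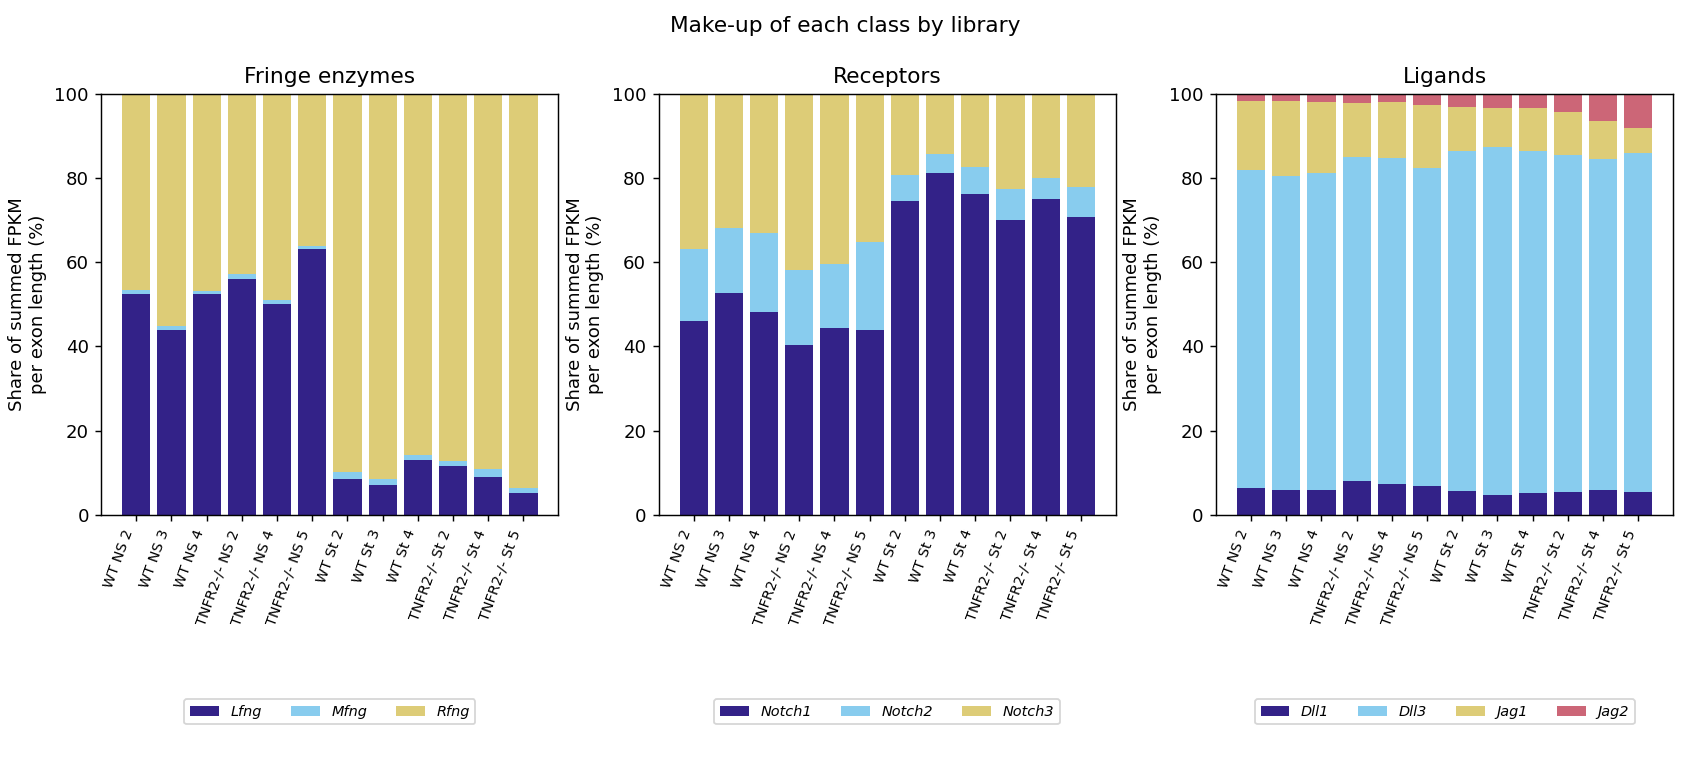
Stacked bars give, for each of the 12 libraries (x axis), the share in percent of the summed exon-length FPKM of the Fringe enzymes, receptors and ligands held by each gene (y axis, from 0 to 100%). *Lfng* holds 44% to 63.1% of the Fringe sum in the 6 NS libraries and 5.06% to 13% in the 6 St libraries, while *Notch1* holds 40.2% to 52.7% of the receptor sum in NS and 70% to 81.1% in St libraries.

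Among the receptors, *Notch1* was higher and *Notch2* lower in stimulated cells. *Notch1* (ENSMUSG00000026923, chromosome 2, 26457903 to 26516663, − strand) was 7.67, 6.02 and 6.86 in WT NS and 7.51, 6.29 and 7.25 in TNFR2-/- NS libraries. It was 17.7, 18.4 and 18.7 in WT St and 20.5, 22.7 and 18.2 in TNFR2-/- St libraries. All St libraries lay above all NS libraries, at 231% to 361% of the NS level in the 6 cultures. The log2 difference was 1.40 ± 0.11 in WT and 1.52 ± 0.11 in TNFR2-/- cells.

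*Notch2* (ENSMUSG00000027878), a related receptor, was 2.83, 1.75 and 2.66 in WT NS, 3.36, 2.18 and 3.45 in TNFR2-/- NS, 1.47, 1.001 and 1.57 in WT St and 2.12, 1.57 and 1.83 in TNFR2-/- St libraries. St libraries were lower in 6 of 6 cultures, at 52% to 71.7%, with log2 differences of −0.77 ± 0.23 in WT and −0.65 ± 0.23 in TNFR2-/- cells. The first of these met the call rule but lost it in 15 of 30 alternatives, and the second did not but met it in 6 of 30, both replicate blocks among them. *Notch3* (ENSMUSG00000038146), best known from mural cells of vessels, was 6.15, 3.65 and 4.72 in WT NS, 7.82, 5.74 and 5.81 in TNFR2-/- NS, 4.60, 3.29 and 4.28 in WT St and 6.67, 6.06 and 5.73 in TNFR2-/- St libraries. Its NS and St libraries overlapped in both genotypes (−0.23 ± 0.19 and −0.06 ± 0.19). *Notch1* therefore made up 46.1% to 52.7% of the receptor sum in WT NS and 74.5% to 81.1% in WT St libraries, and 40.2% to 44.3% and 70% to 74.9% in TNFR2-/- libraries. The largest overlap with the exons of 1 other annotated gene covered 7.5%, 5.02% and 6.03% of the exon length of *Notch1*, *Notch2* and *Notch3*, *Notch1* overlapped a further gene over 2.91%, and the strand setting of the counting is not given in the sources used here.

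Among the ligands of the set, *Dll3* had the highest level. It is a Delta-like protein held mostly inside the cell, known to inhibit Notch in its own cell rather than to activate a neighbor. *Dll3* (ENSMUSG00000003436) was 45.7, 52.3 and 46.7 in WT NS, 32.3, 45.5 and 28.8 in TNFR2-/- NS, 38.4, 50.6 and 40.3 in WT St and 28.4, 31.4 and 22.9 in TNFR2-/- St libraries. It made up 74.7% to 82.5% of the summed level of the ligands of the set in every library. Outside the set, the noncanonical ligands *Cntn1* and *Dner* averaged higher than *Dll3* in every group (120 and 60.3 against 48.2 in WT NS cells). The other noncanonical ligands listed averaged lower than *Dll3* in every group. NS and St libraries of *Dll3* overlapped in both genotypes, with log2 differences of −0.17 ± 0.17 in WT and −0.35 ± 0.17 in TNFR2-/- cells.

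*Jag1* (ENSMUSG00000027276), a Jagged ligand that activates Notch receptors on neighboring cells, was lower in stimulated cells of both genotypes. It was 9.81, 12.4 and 10.6 in WT NS and 4.88, 5.73 and 4.99 in WT St libraries, and 5.38, 7.74 and 5.72 in TNFR2-/- NS and 3.62, 3.57 and 1.73 in TNFR2-/- St libraries. NS and St did not overlap in either genotype, St was 30.2% to 67.2% of NS in the 6 cultures, and the log2 differences were −1.03 ± 0.24 and −1.07 ± 0.24. *Jag2* (ENSMUSG00000002799), the related ligand, was higher instead. It was 1.13, 1.28 and 1.20 in WT NS, 0.93, 1.22 and 1.07 in TNFR2-/- NS, 1.56, 2.07 and 1.74 in WT St and 1.59, 2.59 and 2.31 in TNFR2-/- St libraries. All St libraries lay above all NS libraries, at 137% to 216% within cultures, with log2 differences of 0.48 ± 0.16 in WT and 0.84 ± 0.16 in TNFR2-/- cells. The level of *Jag1* was thus 8.66 to 9.69 times that of *Jag2* in WT NS and 2.78 to 3.13 times in WT St libraries. It was 5.35 to 6.32 times in TNFR2-/- NS and 0.748 to 2.27 times in TNFR2-/- St libraries, with the lowest ratio in culture 5.

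*Dll1* (ENSMUSG00000014773), a Delta-like ligand that activates Notch on neighboring cells, was 3.81, 4.11 and 3.62 in WT NS, 3.38, 4.27 and 2.63 in TNFR2-/- NS, 2.65, 2.94 and 2.54 in WT St and 1.93, 2.34 and 1.58 in TNFR2-/- St libraries. St was 54.8% to 71.7% of NS and lower in 6 of 6 cultures, with log2 differences of −0.49 ± 0.17 in WT and −0.78 ± 0.17 in TNFR2-/- cells. A gene on the opposite strand, *A930024N18Rik*, shares 20.6% of the exon length of *Dll1*.

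**Figure D2:**
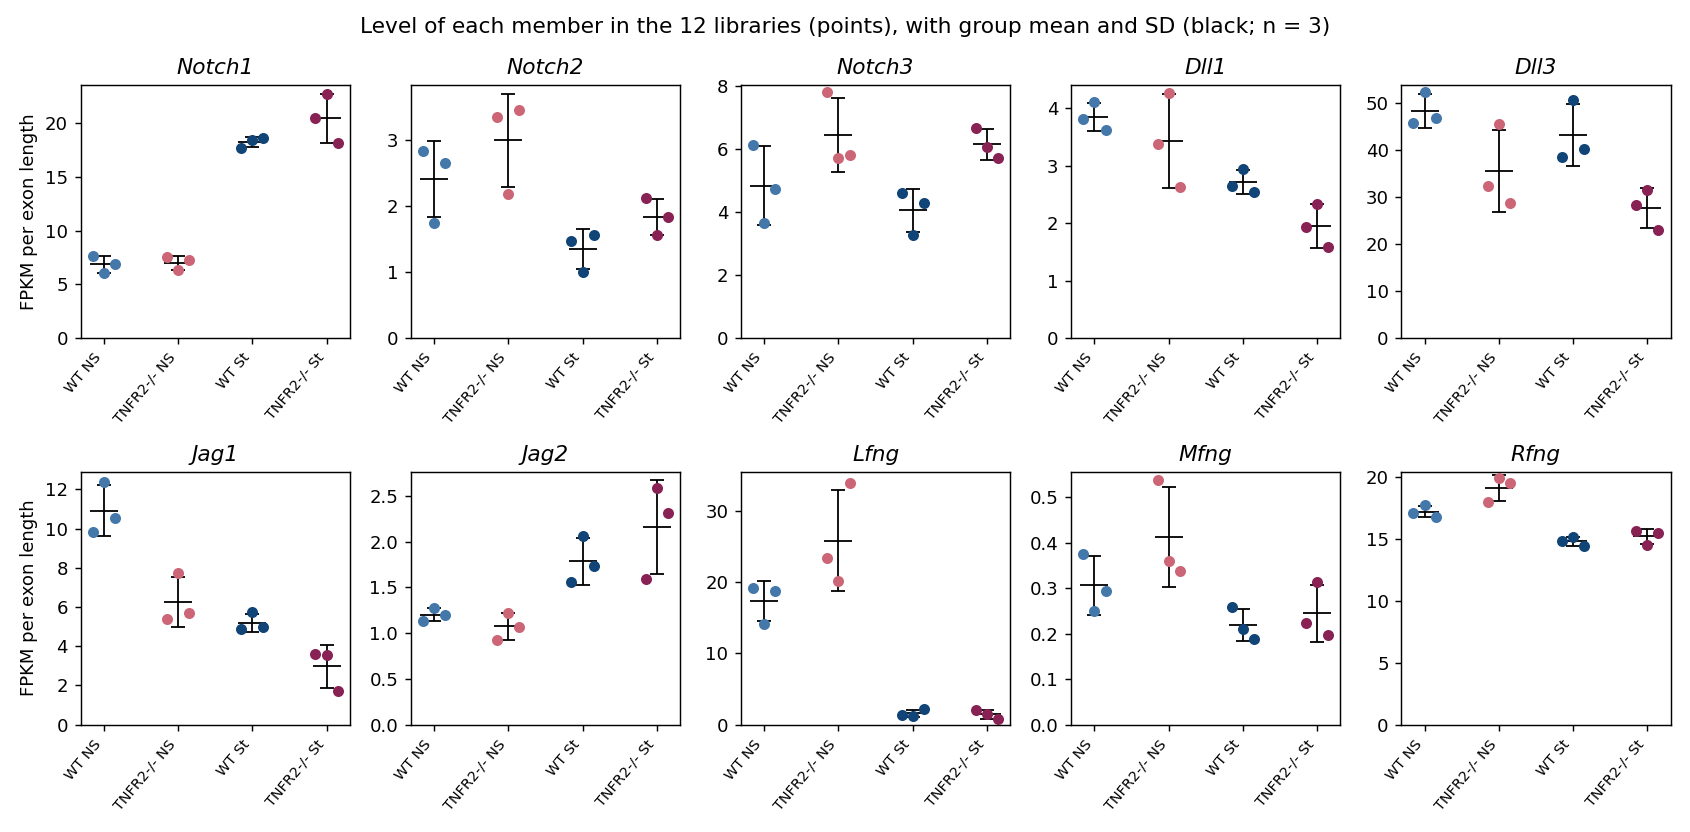
Each panel plots 1 gene: the y axis is the level in FPKM per exon length from 0, the x axis the 4 groups, points are the 3 libraries of a group, and black lines are the group mean with its SD. The St libraries lie below the NS libraries for *Lfng* (0.835 to 2.18 against 14.1 to 33.9) and above them for *Notch1* (17.7 to 22.7 against 6.02 to 7.67).

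As a description and not a test of these genes, 4 of the 10 met the call rule in WT cells (adjusted p of at most 0.05 over all 18081 genes tested, 1.5-fold and a mean of 1 FPKM): *Notch1* higher, and *Notch2*, *Jag1* and *Lfng* lower. The same rule was met by 7.53% of all genes tested. In TNFR2-/- cells 5 met it, *Notch1* and *Jag2* higher and *Dll1*, *Jag1* and *Lfng* lower, against 10.1% of all genes tested. Groups did not overlap for 7 of the 10 genes in WT (37.7% of genes tested) and for 8 in TNFR2-/- cells (37.3%). As the set was proposed from this contrast, nothing is read from these counts. Of the 10 genes, 8 had a lower level on average in stimulated cells of each genotype. The median log2 difference over all 10 was −0.29 in WT and −0.46 in TNFR2-/- cells, where the medians of all genes tested were −0.06 and −0.11.

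**Figure D3:**
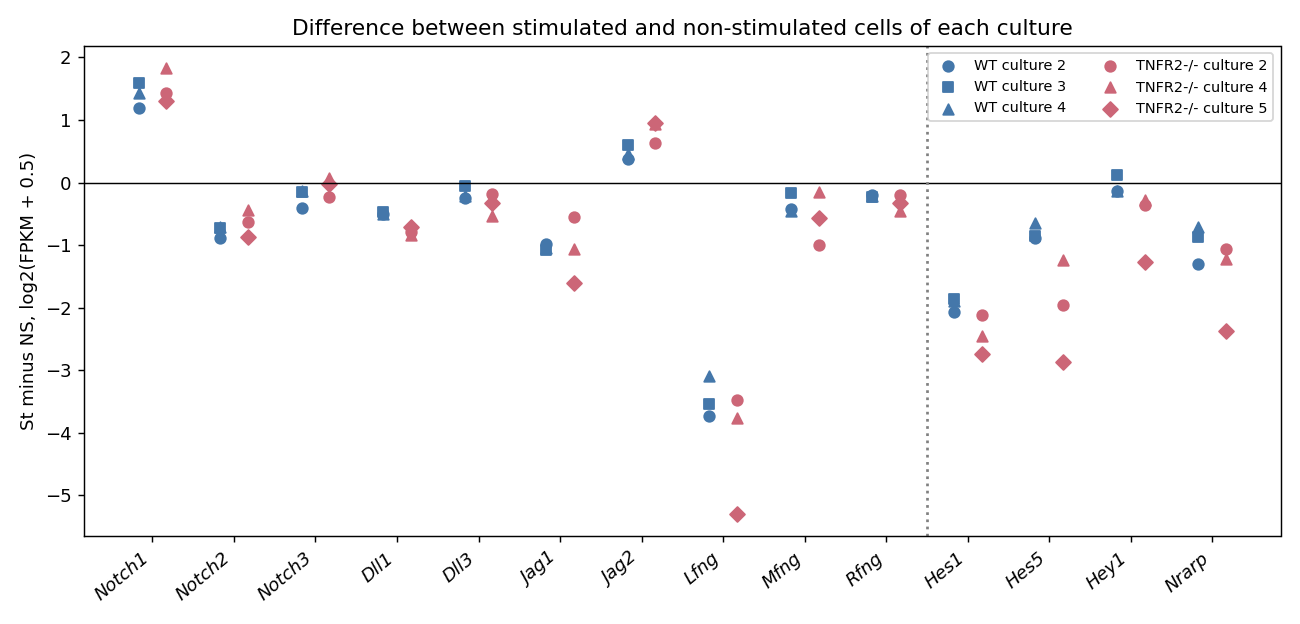
For each gene on the x axis, points give the log2(FPKM + 0.5) difference between the St and the NS library of 1 culture (y axis), blue for WT and red for TNFR2-/- cells, with the shape naming the culture; the dotted line separates the 10 genes from 4 Notch targets. *Lfng* lies at −5.30 to −3.09 and *Hes1* at −2.73 to −1.87 in the 6 cultures, *Notch1* at 1.19 to 1.83.

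Between genotypes the members were tested, as the set was not proposed from these contrasts. The genes and tests were still chosen with earlier results of these data known. The libraries compared are also among those on which the set was selected. In NS cells 0 of the 10 genes passed the test with limma on deposited FPKM, against 2.9% of all genes tested, with 3 at an unadjusted p under 0.05 (*Jag1*, *Dll3* and *Rfng*) and 1 called by voom on recovered reads. With FPKM rescaled to exon length before the fit, an alternative chosen after seeing the data, *Jag1* was called. Groups did not overlap for 4 genes, against 34.2% of genes tested: *Lfng* and *Rfng* lay higher and *Dll3* and *Jag1* lower in TNFR2-/- libraries. The log2 difference of *Jag1* was −0.79 ± 0.24 (95% interval −1.32 to −0.25, adjusted p = 0.0612), that of *Dll3* −0.47 ± 0.17 (adjusted p = 0.104) and that of *Rfng* 0.15 ± 0.06 (adjusted p = 0.107). The difference of *Lfng* was 0.55 ± 0.33, with an interval of −0.17 to 1.28 and adjusted p = 0.29.

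In St cells 0 of the 10 genes passed on deposited FPKM, against 1.8% of all genes tested, with 4 at an unadjusted p under 0.05 and 1 called by voom. With FPKM rescaled to exon length before the fit, *Jag1* and *Dll3* were called. Groups did not overlap for 5 genes, against 32.7% of genes tested: *Notch2* and *Notch3* lay higher and *Dll1*, *Dll3* and *Jag1* lower in TNFR2-/- libraries. *Dll3* differed by −0.65 ± 0.17 (interval −1.03 to −0.26, adjusted p = 0.0556), *Jag1* by −0.82 ± 0.24 (interval −1.36 to −0.29, adjusted p = 0.0683), *Notch3* by 0.59 ± 0.19 (interval 0.17 to 1.02, adjusted p = 0.0873) and *Dll1* by −0.48 ± 0.17 (adjusted p = 0.115). *Jag1* and *Dll3* were thus lower on average in TNFR2-/- libraries under both conditions, without passing the test on deposited FPKM in either. *Jag1* passed in NS cells when TNFR2-/- NS library 4 (adjusted p = 0.0417) or TNFR2-/- St library 5 (0.0176) was left out. *Dll3* passed in St cells without TNFR2-/- NS library 4 (adjusted p = 0.0292) or 5 (0.0429), and in NS cells without library 4 (0.025). Without both libraries of culture 5, *Jag1* passed in NS cells (−0.73, adjusted p = 0.0421) and its difference in St cells was −0.50 (adjusted p = 0.109). *Lfng* differed by −0.17 ± 0.33 in St cells (interval −0.90 to 0.55, adjusted p = 0.771) and *Notch1* by 0.16 ± 0.11 (interval −0.08 to 0.39, adjusted p = 0.374).

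Other cell type markers moved with genotype as well. Of the 8 astrocyte markers, 8 were higher on average in TNFR2-/- libraries in both conditions, with 1 called in NS and 2 in St cells, and the summed level did not overlap between genotypes. Of the 11 mural cell and fibroblast markers tested, 9 were lower in NS and 10 in St cells, with 0 called. Of the 10 OPC markers, 0 were called between genotypes in NS cells. In St cells 2 were called lower in TNFR2-/- libraries and 0 higher, against 0.614% and 1.18% of all genes tested, and 5 of the 10 were higher on average. *Pdgfra* averaged 52.2 in WT St and 34.4 in TNFR2-/- St libraries, and *Lhfpl3* 198 and 131. The part of OPCs or other cells in the genotype differences of *Jag1*, *Dll3* and *Notch3* was not tested.

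**Figure D4:**
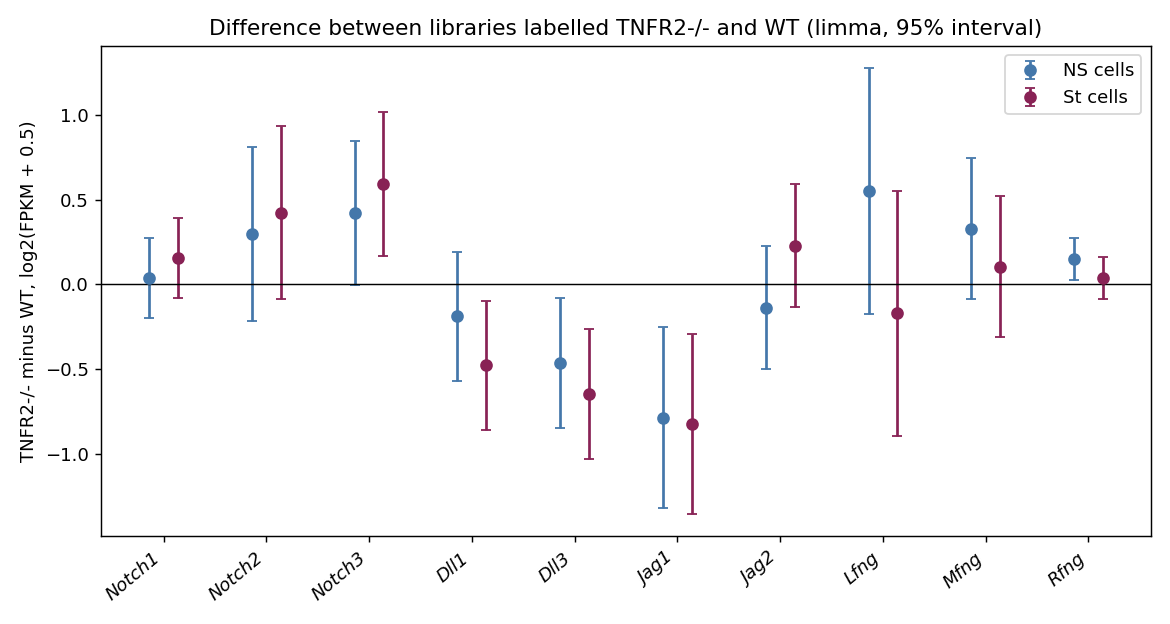
Points give the log2(FPKM + 0.5) difference between libraries labelled TNFR2-/- and WT (y axis) for the 10 genes (x axis), in NS (blue) and St (dark red) cells, with the 95% interval of the limma fit (3 libraries a group). The intervals of *Jag1* lie below 0 in both conditions (−1.32 to −0.25 and −1.36 to −0.29), and on this deposited scale no gene passes the test after adjustment over all genes. With FPKM rescaled to exon length, *Jag1* was called in both conditions and *Dll3* in St cells.

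Whether the response to the cytokines differed between genotypes was tested as an interaction, in the fit of group means, which leaves out the pairing of cultures. It passed for 0 of the 10 genes with limma, with 0 at an unadjusted p under 0.05 and 0 called by voom, against 0.00553% of all genes tested. *Lfng* had the largest estimate in size, −0.72 ± 0.46 (interval −1.75 to 0.30, adjusted p = 0.758), followed by *Jag2* at 0.37 ± 0.23 (interval −0.15 to 0.88, adjusted p = 0.756) and *Dll1* at −0.29 ± 0.24 (adjusted p = 0.836). Without both culture 5 libraries the *Lfng* estimate was −0.16 (adjusted p = 0.958), smaller in size than that of *Jag2* (0.31). The interval of *Notch1* ran from −0.21 to 0.45, and a p that misses the threshold does not show that the responses were alike. Within cultures, *Dll1* differed by −0.51 to −0.47 in WT and by −0.85 to −0.71 in TNFR2-/- cells. *Jag2* differed by 0.38 to 0.60 and by 0.64 to 0.95, and responses of the other members overlapped between genotypes. How many of all genes show such a gap was not counted. Over the alternatives, the block within genotype among them, the lowest limma adjusted p was 0.102 for *Dll1* and 0.183 for *Jag2*.

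Among the members ordered by mean level per exon length, *Dll3* was first in every group, and *Mfng* last. In WT NS cells *Lfng* (17.4 ± 2.85) and *Rfng* (17.2 ± 0.454) followed *Dll3* (48.2 ± 3.59) and overlapped each other, then came *Jag1* (10.9 ± 1.31), *Notch1* (6.85 ± 0.827) and *Notch3* (4.84 ± 1.26), the last of which overlapped both *Notch1* and *Dll1* (3.85 ± 0.245). *Notch2* (2.41 ± 0.581) and *Jag2* (1.20 ± 0.0716) were lower and stood apart. In WT St cells *Notch1* (18.3 ± 0.502) was second and stood apart from *Rfng* (14.8 ± 0.374), and *Lfng* (1.59 ± 0.518) was eighth, overlapping *Jag2* (1.79 ± 0.259) and *Notch2* (1.35 ± 0.303). In TNFR2-/- NS cells *Lfng* (25.8 ± 7.13) overlapped *Dll3* (35.5 ± 8.79), and in TNFR2-/- St cells it was ninth at 1.46 ± 0.62.

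Of the usual transcriptional targets of the pathway, which are not members, *Hes1* met the call rule in both genotypes. These targets were chosen with earlier results of these data known, and the study itself reported lower *Hes1* after stimulation from these data. Their adjusted p are thus not a fresh test. The study also reported a further reduction of *Hes1* in cells without TNFR2, and it lists *Hes1* primers for RT-PCR. Per exon length, *Hes1* averaged 2.15 in WT St and 2.55 in TNFR2-/- St libraries here, and 8.57 and 13.7 in the NS libraries. *Hes1*, a repressor that Notch induces in many tissues, fell by 1.95 ± 0.23 on the log2 scale in WT (adjusted p = 0.000218) and by 2.43 ± 0.23 in TNFR2-/- cells (adjusted p = 3.06e-05). Its level was 9.91, 6.97 and 8.83 in WT NS and 2.28, 1.85 and 2.32 in WT St libraries, and 16.3, 12.2 and 12.5 in TNFR2-/- NS and 3.68, 2.16 and 1.81 in TNFR2-/- St libraries. The groups did not overlap, and St was 14.5% to 26.5% of NS in the 6 cultures.

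*Nrarp*, a feedback inhibitor that Notch induces, and *Hes5* were lower in St in 6 of 6 cultures but had a mean under 1 deposited FPKM over the 12 libraries, so that neither met the expression part of the call rule. For *Hes5* this rests on the deposited scale, which divides by 1773 bases where the exon length is 1363. Per exon length, *Hes5* averaged 1.02 in WT NS, 3.62 in TNFR2-/- NS, 0.309 in WT St and 0.242 in TNFR2-/- St libraries. *Nrarp* differed by −0.96 ± 0.26 in WT (adjusted p = 0.0268) and by −1.55 ± 0.26 in TNFR2-/- cells (adjusted p = 0.00135), with 6 to 9 reads in WT St libraries where WT NS libraries held 23 to 48. *Hes5* differed by −0.80 ± 0.40 (adjusted p = 0.237) and by −2.02 ± 0.40 (adjusted p = 0.00423), with 48 to 292 reads in TNFR2-/- NS libraries and 5 to 16 in TNFR2-/- St libraries. The constant added to FPKM before the log2 makes differences at such low levels smaller in size. In WT cultures St was 23% to 35.2% of NS for *Hes5*, 18.7% to 33.2% for *Nrarp* and 23.1% to 26.5% for *Hes1*. In TNFR2-/- cultures it was 5.79% to 10.4%, 5.93% to 31% and 14.5% to 22.6%. *Hey1*, another repressor of this family, differed by −0.05 ± 0.23 in WT (adjusted p = 0.933) and −0.63 ± 0.23 in TNFR2-/- cells (adjusted p = 0.0673). Culture 5 of the TNFR2-/- cells had the highest NS level of *Lfng* (33.9), *Hes5* (7.06), *Hey1* (27.8) and *Nrarp* (1.37) of the 6 NS libraries. Its NS library also had the highest sums of astrocyte (685), OPC (2064), mature oligodendrocyte (83) and ependymal markers (10.8) of these 6. Its sum of mural cell and fibroblast markers (124) was the lowest. The part of any of these cell types in the values was not tested. Between genotypes none of the 4 targets passed in NS or St cells, the nearest being *Hey1* in NS cells at 0.77 ± 0.23 (adjusted p = 0.0554) and *Hes1* in NS cells at 0.67 ± 0.23 (adjusted p = 0.0876).

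The wider pathway lists held 92 genes, of which 88 were tested. In WT cells 4 rose and 12 fell with stimulation, and in TNFR2-/- cells 5 rose and 13 fell, against 4.58% and 2.95% and against 5.41% and 4.68% of all genes tested. Between genotypes 2 were higher in TNFR2-/- NS cells and 0 lower, against 1.62% and 1.28%, and 0 passed in St cells, against 1.18% and 0.614%, or in the interaction. The median log2 difference of the 88 genes with stimulation was −0.10 in WT and −0.15 in TNFR2-/- cells.

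Among regulators of receptor turnover, 1 of 13 rose and 3 fell in WT and 2 rose and 2 fell in TNFR2-/- cells. *Dtx3l*, a Deltex-type ubiquitin ligase that is also an interferon-induced gene, rose by 5.47 ± 0.25 in WT (adjusted p = 1.3e-07) and by 5.55 ± 0.25 in TNFR2-/- cells (adjusted p = 9.83e-08). Among the 10 genes of receptor glycosylation and maturation 1 rose and 1 fell in each genotype. The one that rose was *Furin*, the protease that cleaves Notch receptors on their way to the surface, by 0.90 ± 0.11 in WT cells (adjusted p = 0.000223).

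Of 9 genes of ligand endocytosis, which in the sending cell is needed for activation, 2 fell in WT and 1 in TNFR2-/- cells, and 0 were called higher. *Neurl3*, related to the neuralized ubiquitin ligases and named after its values were seen, was read 0 to 2 times in WT NS and 70 to 171 times in WT St libraries (adjusted p = 0.001), and 0 to 6 and 155 to 303 times in TNFR2-/- libraries (adjusted p = 7.85e-05), but its average over all libraries was under 1 FPKM. *Neurl1b*, a ubiquitin ligase for the ligands, fell by 0.94 ± 0.11 in WT (adjusted p = 0.000205) and by 1.42 ± 0.11 in TNFR2-/- cells (adjusted p = 7.09e-06). Of 8 noncanonical ligands, 2 fell in each genotype. *Dlk1*, a membrane protein related to the Delta-like ligands, fell by 1.78 ± 0.21 in WT (adjusted p = 0.000185) and by 1.47 ± 0.21 in TNFR2-/- cells (adjusted p = 0.000524).

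Of 9 genes of ectodomain shedding and γ-secretase, 0 were called in WT and 1 was called lower in TNFR2-/- cells with limma, and of 10 genes of the nuclear complex around RBPJ 0 were called in either, with 0 of these 10 called between genotypes. *Rbpj* itself differed by 0.15 ± 0.09 in WT (adjusted p = 0.344) and by 0.26 ± 0.09 in TNFR2-/- cells (adjusted p = 0.0597). Of 14 corepressor genes 1 rose and 1 fell in WT and 1 rose and 2 fell in TNFR2-/- cells, with *Tle1*, a Groucho-type corepressor, at 1.09 ± 0.10 in TNFR2-/- cells (adjusted p = 1.54e-05). Of 13 target genes tested 1 rose and 3 fell in WT and 1 rose and 4 fell in TNFR2-/- cells. The one that rose was *Bhlhe40*, which responds to many signals, by 0.97 ± 0.20 in WT (adjusted p = 0.00722) and 1.13 ± 0.20 in TNFR2-/- cells (adjusted p = 0.00214).

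The canonical receptor and ligand outside the set, *Notch4* and *Dll4*, are best known from endothelial cells. *Notch4* was higher in TNFR2-/- NS than in WT NS cells by 0.81 ± 0.16 (adjusted p = 0.0189), and the target *Id1* by 0.67 ± 0.15 (adjusted p = 0.0268). The call of *Notch4* rests on few reads, 35 to 47 in TNFR2-/- NS against 12 to 23 in WT NS libraries, with a level per exon length of 0.167 ± 0.0244 and 0.0777 ± 0.0203 (SD, n = 3), and reached the average of 1 FPKM on the deposited scale only. Of the 8 endothelial markers, 7 were under 1 in all libraries of the NS groups.

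The genes whose pattern over the 12 libraries was most like that of *Lfng*, by the root mean square difference of centered log2 values among the 13554 genes that averaged 1 FPKM or more, were *Gpr12* (0.775), *Fam65b* (0.784), *Pyy* (0.833), *Hes1* (0.866) and *Fam101a* (0.878), where the SD of *Lfng* itself was 2.04. Their log2 differences with stimulation ranged from −2.89 to −1.95 in WT and from −2.98 to −2.43 in TNFR2-/- cells, smaller in size than those of *Lfng*. The likeness is a description over libraries that share their 4 groups.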

How the data were processed

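RNA was sequenced from 12 libraries of primary OPCs. Per the methods, the authors used Trim Galore for trimming, STAR for alignment to GRCm38 (Ensembl annotation) and for counting, and EdgeR for FPKM. The FPKM as deposited come as 1 table for NS and 1 for St libraries, 45792 entries each. The methods name a BGISeq-500 platform and pups of days 3 to 5, and the labels Illumina protocols and days 2 to 5.

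Symbols used more than once (99) were left out. Whole reads were recovered (tolerance 0.05) for 26635 of 26636 genes. The deposited divisor of each gene was the same in both tables and each library was divided by its own total, so the tables were compared. That divisor was unrelated to annotated exon length (Spearman rho 0.00973 over 16013 genes; 131 bases for *Lfng* against 2505), so levels were rescaled to GENCODE M21 exon length. The total per library was 26886878 to 30335265 reads.

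The 4 group means were fitted to log2(FPKM + 0.5) by limma 3.58.1 (R 4.3.3) with a mean-dependent prior, over the 18081 genes that averaged 0.1 FPKM or more. A call needed a p of 0.05 or less after Benjamini-Hochberg adjustment over all of them, a 1.5-fold difference and an average of 1 FPKM or more. The p-values measure the spread between these cultures. The genes described, the pathway and marker lists and the tests were chosen with earlier results of these data known. Named pathway genes were the called ones of largest fold change, up to 3 in each direction of a comparison, with *Hes1*, *Hes5*, *Hey1* and *Nrarp*; *Rbpj* was added after its values were seen. After removal of group means over 13554 genes, the 6 NS-St pairs sharing number and genotype correlated at 0.338 to 0.649 and the 12 with other numbers at −0.455 to 0.088, so numbers pair cultures; the 4 same-number pairs across genotypes correlated at −0.055 to 0.204 and were not taken as pairs. The fit was tested on simulated data. Python 3.11.15, numpy 2.4.6, pandas 2.3.3 and matplotlib 3.10.9 were used for recovery, summaries and figures. Alternatives changed the pseudocount, filters, scaling, fit and thresholds, left out each library and used a replicate block or voom on recovered reads. Rescaling before the fit and leaving out both libraries of TNFR2-/- culture 5 were chosen after seeing the data. Protein, quantitative PCR and cell counts were not analysed here.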

Additional observations from a re-analysis of the deposited data

How the results depend on the processing

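No value changed direction while called, and the interaction called 0 of the 10 genes under every alternative. In TNFR2-/- NS vs WT NS cells the count of genes called was 0 and became 1 (*Jag1*) with a filter at a mean of 1 FPKM, weights for each library, voom on recovered reads, FPKM rescaled to exon length or both culture 5 libraries left out, and ranged from 0 to 2 as each library was left out. In TNFR2-/- St vs WT St cells it was 0 and became 1 with the filter at 1 FPKM (*Dll3*), weights (*Jag1*) or voom (*Dll3*) and 2 with rescaled FPKM (both), and ranged from 0 to 1 as each library was left out. In WT St vs WT NS cells the count was 4 and ranged from 2 to 4 as each library was left out. The 2 genes called without WT St replicate 2 lacked *Notch2* and *Jag1*, and *Jag1* was also lost without WT NS replicate 3. *Notch2* lost its call without 9 of the 12 libraries, without both culture 5 libraries and under no filter, median-of-ratios or upper quartile scaling, a fit over 6 libraries and a 2-fold threshold. In TNFR2-/- St vs TNFR2-/- NS cells the count was 5 and became 3 with a fit over the 6 libraries compared (*Dll1* and *Jag1* lost) or with a 2-fold threshold (*Dll1* and *Jag2* lost). It rose to 7 with weights or no fold threshold and to 6 with a pseudocount of 0.1, voom or either block, and ranged from 5 to 6 as each library was left out. Calls gained were of *Notch2* in 6, *Mfng* in 5 and *Rfng* in 1 alternative. With the replicate block within genotype, 4 genes were called in WT and 6 in TNFR2-/- cells, the added one being *Notch2* (−0.65), and the block changed no other call of these genes. With the block by number over all libraries, 0 were called between genotypes. The cause of these changes was not tested, beyond the fewer libraries or stricter thresholds that the alternatives impose. Counting depth limits *Mfng* (16 to 46 reads) and *Lfng* in stimulated cells (60 to 164 reads) most.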
